A study of Zea mays with 24 samples.

Results

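Mature pollen of the F1 hybrid ND101/W23 was compared with mature pollen of the inbred line W23 on 3 two-colour arrays, out of 24 arrays in the series. The arrays were chosen by their titles, which name this comparison and its replicates 1 to 3. The hybrid was made by placing W23 pollen on ND101 plants, so that it holds a W23 copy of every chromosome beside an ND101 copy, and the W23 line carries the bz2 mutation, which blocks the accumulation of anthocyanin. Pollen was collected from bagged tassels of plants grown in a field, and the pollen of a single plant made up a biological sample. The other arrays compare the hybrid with W23 in 1 mm anthers, 1.5 mm anthers and juvenile leaf, and a derivative of the line A619 with W23 in all 4 tissues. In pollen, the W23 sample of a given replicate number was hybridized both against ND101/W23 and against A619.

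A mature maize pollen grain is a haploid plant of its own, made of a large vegetative cell that grows the pollen tube and of sperm cells carried within it. The vegetative cell sheds its grain stocked with RNA and protein for fast tip growth, and transcripts for wall-loosening and pectin-digesting enzymes, for actin-binding proteins and for secreted allergens are among its most abundant. In a hybrid, each grain carries the allele of only one parent at any gene, and pollen pooled from a hybrid plant is a mixture of grains with either allele. Pollen was measured in bulk, so fewer grains with a transcript and less of it in each grain cannot be told apart.

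The values are log2 ratios, read here as ND101/W23 over W23, so that 1 stands for a doubling of the ratio and a negative value for less in the hybrid. They cover 7900 probes of 60 bases. Array medians were -0.01, 0.01 and -0.02, and the SD over probes was 0.503, 0.505 and 0.541. Across probes, replicates 1 and 2 correlated at 0.398, replicates 1 and 3 at 0.451 and replicates 2 and 3 at 0.307, a description over probes, which are not independent replicates. By the labels, the dyes of replicate 3 were swapped relative to replicates 1 and 2. A departure of array 3 alone can therefore not be told apart from a dye effect. The ratios hold no signal intensity, so neither the level of a transcript nor its presence in pollen can be read from them. A product name is the protein match that the study listed for an EST assembly (a transcript rebuilt from short cDNA reads), and it stands for similarity of sequence.

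Of 7900 probes, 74 differed between ND101/W23 and W23 pollen, which is 0.937% of those tested. ND101/W23 was higher at 44 probes (0.557%) and lower at 30 (0.38%). A probe was called when its Benjamini-Hochberg adjusted p in limma was under 0.05 and its 3 ratios had the same sign. At an unadjusted p under 0.05 there were 863 probes. The called probes were far from 0: the median size of their mean log2 ratio was 1.61, the smallest was 0.727, 69 lay beyond 1 and 22 beyond 2. Only 10 of them have an EST name, 2 more have a gene symbol through the platform's gene table, and 62 have neither. With Rank Products, the rank-based test of the study's methods, 109 of 7887 probes were called (1.38%), 48 higher and 61 lower, and 55 of the 74 were among them. The count fell most without replicate 1 or 3. It was 4 without ND101/W23 replicate 1, 50 without replicate 2 and 11 without replicate 3, and 0, 89 and 3 when the A619 array of the same number was left out as well. With a fit on the 3 arrays alone it was 34, and on all 24 arrays 326.

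**Figure D1:**
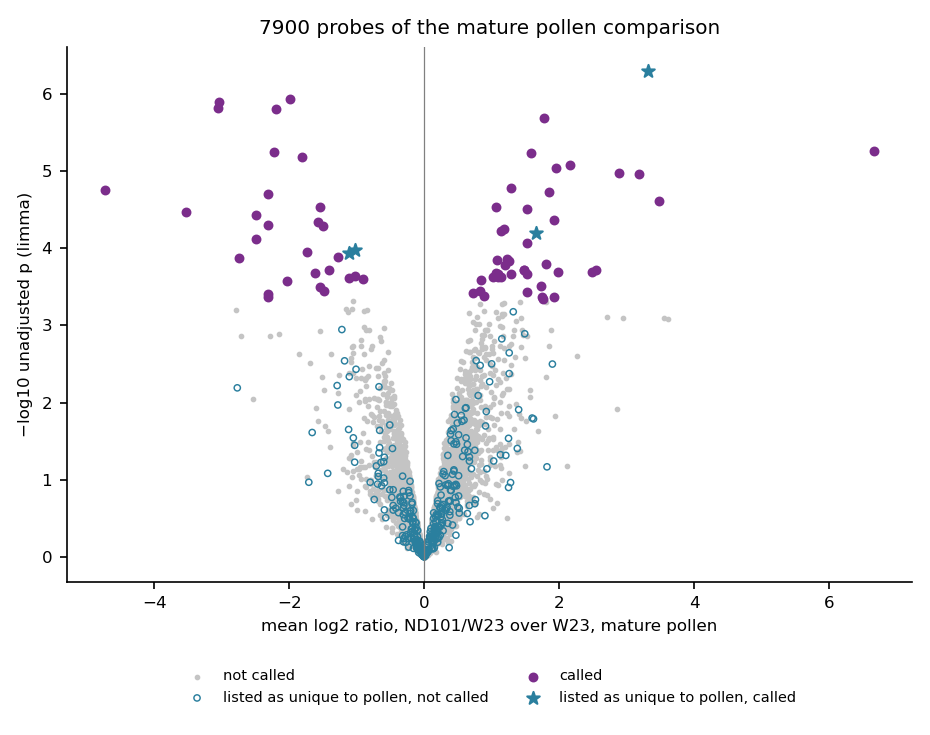
Mean log2 ratio of ND101/W23 over W23 in mature pollen (x axis, 3 arrays) against −log10 of the unadjusted limma p (y axis) for 7900 probes. The 74 called probes are filled, and of the 330 probes listed as unique to pollen (open circles and stars) 4 were called (stars).

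Of 19 measured pollen-listed transcripts for cell wall and pectin proteins, 1 was higher and 1 lower in limma (10.5%, beside 0.937% of all probes). TC259833, weakly similar to an alpha expansin, had log2 ratios of 3.27, 2.81 and 3.85 in ND101/W23 pollen. Expansins loosen the bonds between wall polymers and let cells extend. All 3 arrays were high, and the mean was 3.31 ± 0.52 (SD, n = 3), a 9.92-fold difference (limma SE 0.2, adjusted p 0.00251). Among the 14 named probes that were called, TC259833 was the only one that stayed called without ND101/W23 replicate 1, and none of them did when the A619 array of that number was left out too. In A619 pollen the same probe had 3.62, 3.65 and 3.44 against the same W23 samples. In the other tissues of the hybrid it was close to 0, with means of 0.3 in 1 mm anthers, 0.11 in 1.5 mm anthers and -0.19 in leaf.

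TC272629, listed as a partial (3%) match to DAN4, a cell wall protein of yeast, was the lower one. It is in the cell wall group through this match alone. Its ratios were -1.08, -1.12 and -0.86 in ND101/W23 pollen, and -1.27, -1.32 and -0.94 in A619 pollen. Both lines were thus below W23 on every array. The hybrid mean was -1.02 ± 0.14 (SD, n = 3; limma adjusted p 0.0245). The call was lost in the fits on 3 arrays and on all 24 arrays, and whenever a replicate was left out.

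Among proteins of chromatin and transcription, 1 called probe was higher and 1 was lower, out of 70 measured probes with such a product name (2.86%, beside 0.937% of all probes). TC259707, an HMG-like protein listed as nucleosome/chromatin assembly factor D, had ratios of 1.57, 1.77 and 2.22 in ND101/W23 pollen. HMG proteins bend DNA and bind between nucleosomes. The mean was 1.85 ± 0.33 (SD, n = 3), or 3.61-fold (limma adjusted p 0.00862), and A619 pollen had 2.03, 1.34 and 1.51. The hybrid's means in the other tissues were 0.57 in 1 mm anthers, 0.19 in 1.5 mm anthers and -0.26 in leaf.

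TC251179, a weak match to the squamosa-promoter binding proteins, had the lowest mean of the called transcripts with an EST name. Members of this plant family bind DNA and control, among others, the change of growth phase and flowering. Its ratios were -4.12, -2.72 and -3.76 in ND101/W23 pollen and -4.4, -2.71 and -2.72 in A619 pollen. The hybrid mean of -3.53 ± 0.73 (SD, n = 3; limma adjusted p 0.0118) was an 11.6-fold difference, beside means of -0.45 and -0.48 in 1 mm and 1.5 mm anthers and 0.08 in leaf. The study lists this transcript as detected in juvenile leaf only, so its pollen ratio comes from a probe that the study did not count as hybridized in pollen.

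LOC542743, which the gene table of the Zm-B73-REFERENCE-NAM-5.0 assembly also calls et1, was lower in hybrid pollen. The etched1 gene is known in maize for a zinc-ribbon protein of plastids whose loss scars the kernel. Ratios were -2.48, -2.03 and -2.43 in ND101/W23 pollen, against -2.1, -0.72 and -0.85 in A619 pollen. The 3 hybrid arrays lay close together, with a mean of -2.31 ± 0.25 (SD, n = 3; limma adjusted p 0.0145), and in A619 only replicate 1 lay among them. Means in the other tissues of the hybrid were -0.34 in 1 mm anthers, -0.48 in 1.5 mm anthers and -0.62 in leaf.

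TC275330, similar to a rice transposase, the enzyme that moves a DNA transposon, had ratios of -0.95, -1.18 and -1.71 in ND101/W23 pollen. The mean was -1.28 ± 0.39 (SD, n = 3; limma adjusted p 0.0275), and A619 pollen had -0.89, -0.53 and -0.58. The probe was also called lower in the hybrid's 1 mm and 1.5 mm anthers, at means of -1.3 and -1.56, and its leaf mean was -0.37. The pollen call was lost in the fit on 3 arrays and whenever a replicate was left out.

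TC259322, similar to the CR14 subunit of ubiquinol-cytochrome c reductase, was lower in the hybrid in every tissue. This complex passes electrons from ubiquinol to cytochrome c in the inner membrane of mitochondria. Ratios were -3.33, -2.69 and -3.17 in ND101/W23 pollen and -2.55, -1.99 and -1.56 in A619 pollen. All 6 arrays were low, those of the hybrid lower than those of A619, though the difference between the lines was not called (limma adjusted p 0.448). The mean in hybrid pollen was -3.06 ± 0.33 (SD, n = 3), an 8.36-fold difference (limma adjusted p 0.00251). It was called in 1 mm anthers at -3.69, in 1.5 mm anthers at -4.1 and in leaf at -3.23 as well, and the pollen mean differed from that of the other 3 tissues by 0.61 (limma SE 0.68, adjusted p 0.784).

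TC259707 and TC259322 are the called members of a panel that was also measured by qRT-PCR, and the primers used there are given below. Without the transcript and probe sequences, the place of the amplified stretch and its relation to the array probe cannot be read from them. The first primer of each pair is the forward and the second the reverse primer, both 5′ to 3′ and 20 bases long, from the primer list that came with the series.
TC259707 forward: tccaagtgtttgcagtcagg
TC259707 reverse: aacatcccaatccaacaacg
TC259322 forward: cccctacttcgatctggaca
TC259322 reverse: tctgaatggaacctgctgtg

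CD510512, similar to a rice potassium channel, was higher in hybrid pollen and near 0 in the other tissues. Channels of this kind let potassium pass through membranes. Its ratios were 1.18, 1.88 and 1.54 in ND101/W23 pollen, against 0.14, 0.29 and -0.12 in A619 pollen. The hybrid mean was 1.53 ± 0.35 (SD, n = 3), or 2.89-fold (limma adjusted p 0.011), a call that was lost in the fit on 3 arrays. Hybrid means were -0.27 in 1 mm anthers, -0.11 in 1.5 mm anthers and -0.11 in leaf. The study lists this transcript, too, as detected in juvenile leaf only.

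Other called transcripts carry no name that tells a function. TC268098, listed as unique to pollen and described here after its values were seen, had ratios of 1.72, 1.58 and 1.65 in ND101/W23 pollen and -0.12, -1.1 and -0.22 in A619 pollen. Its hybrid mean was 1.65 ± 0.07 (SD, n = 3; limma adjusted p 0.0163), and its means in the other tissues were 0.05, -0.06 and -0.02 in 1 mm anthers, 1.5 mm anthers and leaf. TC264374, also listed as unique to pollen and matched to a fly protein of unstated function, is read by a probe that runs against the listed EST assembly. It had -1.26, -1.18 and -0.93 in ND101/W23 pollen and -0.05, 0.17 and 0.51 in A619 pollen. Both transcripts were picked on the hybrid arrays, which favours a distance between the lines. The mean of TC264374 was -1.12 ± 0.17 (SD, n = 3; limma adjusted p 0.0256). Its call was lost in the fits on 3 and on all 24 arrays, and whenever a replicate was left out.

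LOC732725 was higher in the hybrid throughout, with 1.85, 1.42 and 1.17 in ND101/W23 pollen against -0.44, 0.48 and -0.24 in A619 pollen. Its pollen mean of 1.48 ± 0.34 (SD, n = 3; limma adjusted p 0.0318) stood beside called means of 0.62 in 1 mm anthers, 0.8 in 1.5 mm anthers and 0.67 in leaf. The pollen call was lost in the fit on 3 arrays and whenever a replicate was left out. TC271583, a match to a hypothetical rice protein that the study lists as detected in leaf only, had -3.53, -1.84 and -2.87 in ND101/W23 pollen and -1.1, -1.91 and -0.35 in A619 pollen. Its mean was -2.75 ± 0.85 (SD, n = 3; limma adjusted p 0.0275), and it was called in both anther stages, at -2.94 and -2.84, while its leaf mean was -0.4. This pollen call, too, was lost in the fit on 3 arrays.

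The largest differences of all belonged to unnamed probes. Probe 3123 had ratios of 6.87, 4.78 and 8.32 in ND101/W23 pollen against 0.43, 0.27 and 0.49 in A619 pollen. Its mean of 6.66 ± 1.78 (SD, n = 3; limma adjusted p 0.00512) stood beside hybrid means of 1.11 in 1 mm anthers, 0.6 in 1.5 mm anthers and -0.03 in leaf. Probe 17106 was the lowest, with -5.37, -3.51 and -5.3 in ND101/W23 pollen and -6.59, -4.76 and -4.77 in A619 pollen. Its hybrid mean was -4.73 ± 1.05 (SD, n = 3; limma adjusted p 0.00862).

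**Figure D2:**
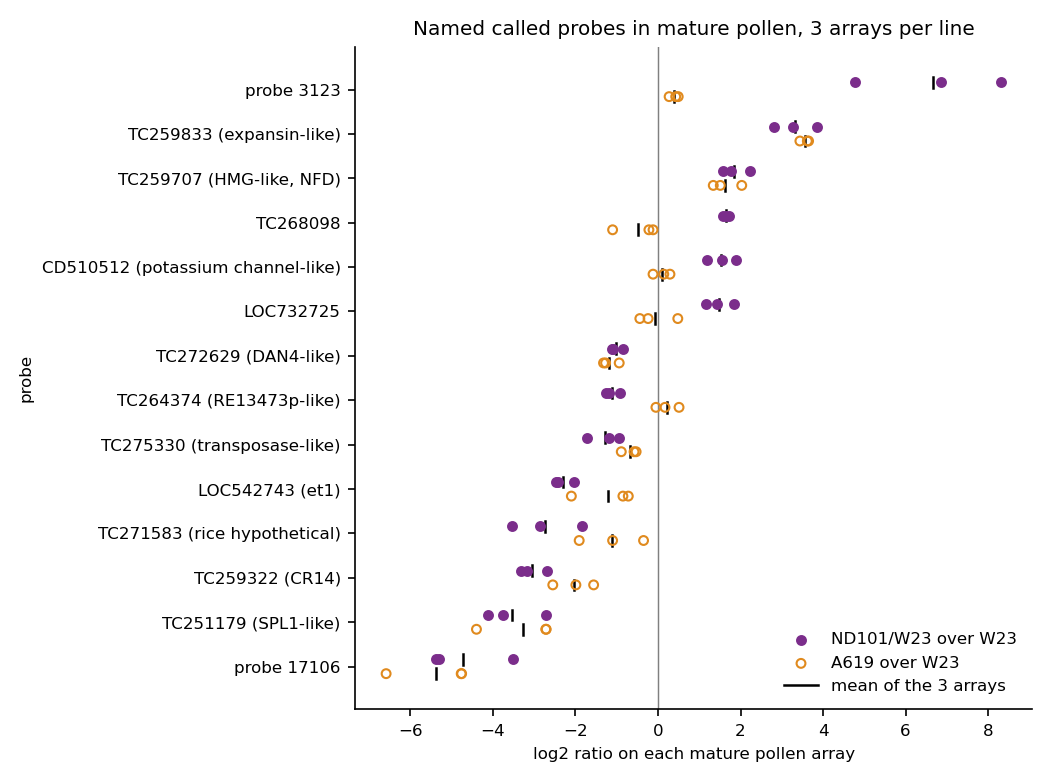
Log2 ratios over W23 on each mature pollen array for the 14 named called probes (rows), with ND101/W23 filled above A619 open, and a bar at the mean of 3 arrays. For TC268098, CD510512, LOC732725 and TC264374, some or all A619 ratios lay on the other side of 0 from those of the hybrid. The ratios of every other row lay on the same side of 0 in both lines.

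By the same rule 1.53% of probes were called in A619 pollen in either direction. Of the 74 probes called in hybrid pollen, 25 were called in A619 pollen too, in the same direction. Both lines were set against the same W23 samples, so the A619 ratios given beside those of the hybrid are no independent measure of the W23 side. The difference between the lines was itself tested. No probe was called for ND101/W23 minus A619 in limma without a block (0.0%, lowest adjusted p 0.0537), with 682 probes at an unadjusted p under 0.05. With the replicate number as a block for the shared W23 samples, 26 probes were called (0.329%), and 12 of these were among the 74. The 74 were chosen on the same hybrid arrays, which favours their being called here. Of the transcripts described above, TC268098 (2.13, adjusted p 0.0203 with the block and 0.0704 without), CD510512 (1.43, adjusted p 0.0419 and 0.14), TC264374 (-1.33, adjusted p 0.0324 and 0.121) and probe 3123 (6.26, adjusted p 0.0173 and 0.0578) were called with the block only.

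The other tissues of the hybrid show how far the pollen differences recur. Of the 44 probes higher in hybrid pollen, 10 were also called higher in 1 mm anthers (22.7%), 11 in 1.5 mm anthers (25.0%) and 13 in leaf (29.5%), where 2.47%, 1.82% and 5.85% of all probes were called higher and 7.05%, 3.96% and 10.3% in either direction. Of the 30 lower ones, 7 were called lower in 1 mm anthers (23.3%), 4 in 1.5 mm anthers (13.3%) and 3 in leaf (10.0%), beside 4.58%, 2.14% and 4.41% of all probes. In total 28 of the 74 were called the same way in at least 1 other tissue and 4 in all 3. Calls in the opposite direction were made for 2 of the 44 in 1 mm anthers and 1 in leaf, and for 1 of the 30 in 1.5 mm anthers. Their ratios there were smaller: the 44 had a median of 1.52 in pollen and of 0.33, 0.19 and 0.39 in 1 mm anthers, 1.5 mm anthers and leaf, and the 30 had -1.9 in pollen and -0.48, -0.46 and -0.25.

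The pollen ratio was also tested against the mean of the other 3 tissues. Over all probes 232 were called (2.94%), 140 with a higher and 92 with a lower ratio in pollen. The count fell to 34 without ND101/W23 replicate 1, to 135 without replicate 2 and to 16 without replicate 3. Of the 74 probes, 36 were called, 23 of them higher and 13 lower in pollen, and each of the 36 was further from 0 in pollen. These probes were chosen on the same pollen arrays, which favours that direction. TC259833 differed by 3.24 (limma SE 0.21, adjusted p 2.51e-05) and TC251179 by -3.25 (SE 0.24, adjusted p 8.08e-05). TC268098 differed by 1.66 (limma adjusted p 0.000714), CD510512 by 1.7 (0.000422), TC259707 by 1.69 (0.00932) and LOC542743 by -1.83 (0.00278).

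**Figure D3:**
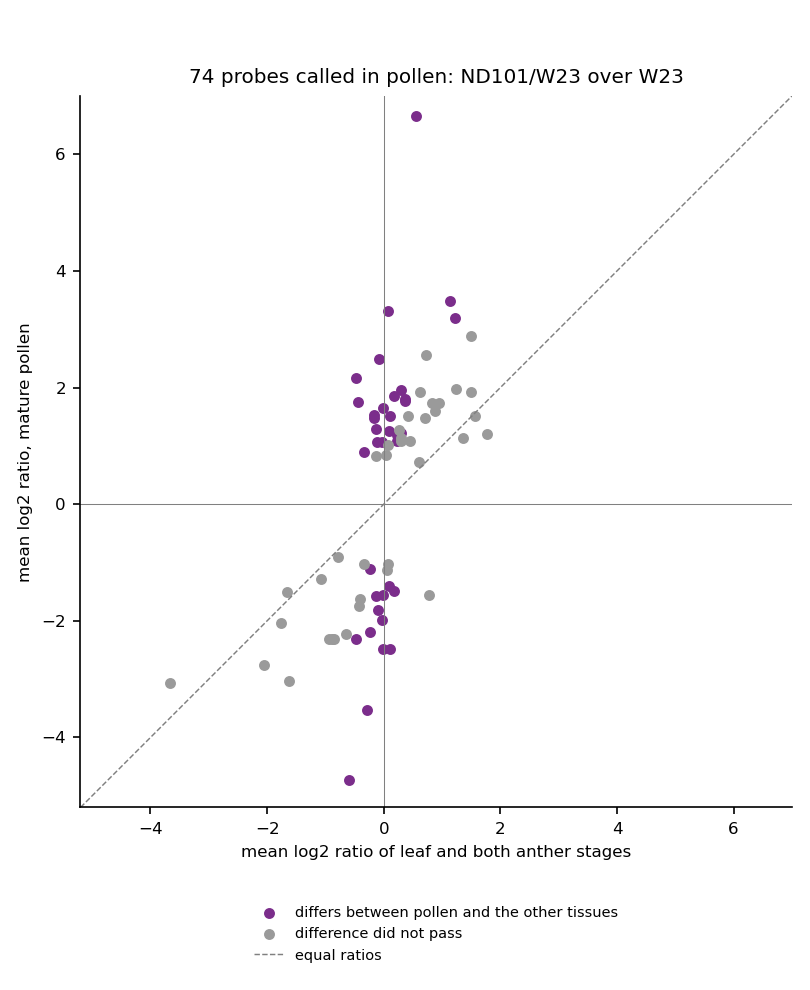
Mean log2 ratio of ND101/W23 over W23 in mature pollen (y axis) against the mean of juvenile leaf and both anther stages (x axis) for the 74 probes called in pollen. The 36 filled purple points are probes whose ratio differed between pollen and the other tissues, and each lies further from 0 in pollen than the dashed line of equal ratios.

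A list of 346 transcripts detected in pollen and in no other tissue came with the series, and 330 of them have a value. The list was drawn up on these samples, by detection and not by the ratio. In the hybrid, 2 of the 330 were higher (TC259833 and TC268098) and 2 were lower (TC272629 and TC264374), or 1.21% called in limma beside 0.937% of all probes. Rank Products called 5 of the 330 higher and 10 lower, beside 48 higher and 61 lower of all 7887 probes it tested (1.38%). At an unadjusted limma p under 0.05 were 64 of the 330, beside 863 of all 7900. Thus limma's called share was near that of all probes, while these 2 counts were not. The median log2 ratio of the 330 was 0.05, beside -0.01 for all probes, with 0.01, 0.09 and 0.07 on the 3 arrays. Of the 330 means, 35 (10.6%) lay beyond 1 in size, 19 above and 16 below 0, beside 3.13% of all probes. The median SD over the 3 arrays was 0.411 for pollen-listed probes and 0.246 for all probes. The set of all probes holds many that the study detected in other tissues and not in pollen, so a narrower spread of the whole set is built into this comparison. Of the pollen-listed probes, 66 run against the listed EST assembly and 264 along it, and their medians were -0.03 and 0.08.

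Part of the pollen-listed transcripts were grouped into functions by words in their product names. Of the 330 measured probes of that list, 85 have no product name. The groups are small. With 0.937% of all probes called in limma and 1.38% by Rank Products, the lack of a call in a group tells little about it. The counts of each group at an unadjusted p under 0.05 stand beside 64 of the 330 and 863 of all 7900 probes. The 19 probes for cell wall and pectin proteins had a median of 0.06. Beside TC259833 and TC272629, Rank Products called TC266523 lower, similar to a xyloglucan endotransglucosylase/hydrolase, an enzyme that cuts and rejoins wall glucans. Its probe runs against the listed EST assembly. Its ratios were -0.68, -1.31 and -1.66, all below 0, with a mean of -1.22 (limma adjusted p 0.0772), and they were -1.32, -0.95 and -0.42 in A619 pollen. TC260710, a match to the wall protein gp1 that was picked out after its values were seen, was among the 3 means above 1, with 1.0, 1.61 and 1.18 (limma adjusted p 0.151).

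None of 11 allergens and proteins named for pollen was called in limma (2 at an unadjusted p under 0.05), 1 was called by Rank Products, and their median was 0.18. TC260229, weakly similar to the grass allergen Phl p 11, had the lowest mean of the whole pollen list. Its ratios of -1.17, -1.69 and -5.45 were all negative, but array 3 stood far from the others, and the mean of -2.77 ± 2.34 (SD, n = 3) was not called in limma (adjusted p 0.185) but was called lower by Rank Products. A619 pollen had 0.21, 0.23 and 0.72. At the other end, TC269704, a pollen specific mRNA, had 2.72, -0.13 and 1.55, so that its arrays did not share a sign.

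None of 14 probes for actin, tubulin and their partners was called in limma or by Rank Products. At an unadjusted limma p under 0.05 were 5 of the 14, beside 64 of the 330 pollen-listed and 863 of all 7900 probes. The median of the 14 was 0.34, which came from array 2 (0.7) more than from arrays 1 and 3 (0.04 and 0.03). Profilin binds actin monomers and supplies them to the growing filaments of the tube tip, and its 3 probes went different ways. TC257450 had ratios of 1.13, 1.06 and 1.77 in ND101/W23 pollen and 0.11, -0.34 and 0.73 in A619 pollen. Its mean of 1.32 ± 0.39 (SD, n = 3) just missed the threshold (limma adjusted p 0.059), and it was called with the replicate block at 0.0471. TC269359 had -0.75, -0.62 and -2.0, with a mean of -1.12 (limma adjusted p 0.33), and TC269357 had -0.37, 0.23 and -2.07.

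Protein kinases, calcium and calmodulin proteins and phosphatase 2C, the signalling proteins of the tip, were the largest group, with 26 probes. None was called in limma (2 at an unadjusted p under 0.05), and 1 was called by Rank Products. Their median was -0.08, and 1 mean lay beyond 1 in size. TC258665, similar to a serine/threonine kinase, had -1.09, -1.1 and -0.95, close on all 3 hybrid arrays, against 0.99, -1.18 and 0.78 in A619 pollen. The mean of -1.05 was not called in limma (adjusted p 0.377) and was called lower by Rank Products. TC249541, a calcium-dependent protein kinase, was the highest of the group at 0.07, 1.77 and 0.25.

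Among 12 probes for small GTPases, vesicle traffic and phosphoinositide lipids, 3 means lay above 1 and none was called in limma or by Rank Products (1 at an unadjusted p under 0.05). The highest, a match to SEC14, which moves lipids between membranes, had 0.15, 2.47 and 1.21, so that array 2 carried most of its mean. None of 12 membrane transporters was called in limma (2 at an unadjusted p under 0.05). The sulfate transporter-like TC275189, the one that Rank Products called, was the lowest, at -1.54, -1.32 and -0.69 in ND101/W23 pollen and 0.37, -0.92 and -0.01 in A619 pollen. All 3 hybrid arrays were below 0, with a mean of -1.18 (limma adjusted p 0.122), and the pollen mean differed from that of the other tissues by -1.29 (limma adjusted p 0.00753).

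Of 11 transcripts of sugar, sugar nucleotide and organic acid metabolism, none was called in limma or by Rank Products (4 at an unadjusted p under 0.05). BQ048092, similar to UDP-glucose pyrophosphorylase, which makes the sugar donor for wall glucans, had 1.55, 2.11 and 0.53 (mean 1.4, limma adjusted p 0.254). TC251072, similar to glycerol-3-phosphate dehydrogenase, had -1.4, -0.19 and -1.74 (mean -1.11, adjusted p 0.156), and was called when replicate 2 was left out. Of 7 proteases, protease inhibitors and ubiquitin ligases none was called in limma or by Rank Products (1 at an unadjusted p under 0.05), and their means lay between -0.09 and 0.59. The product names of 138 more pollen-listed probes fall outside these groups, and 1 of them, TC264374, was called in limma.

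**Figure D4:**
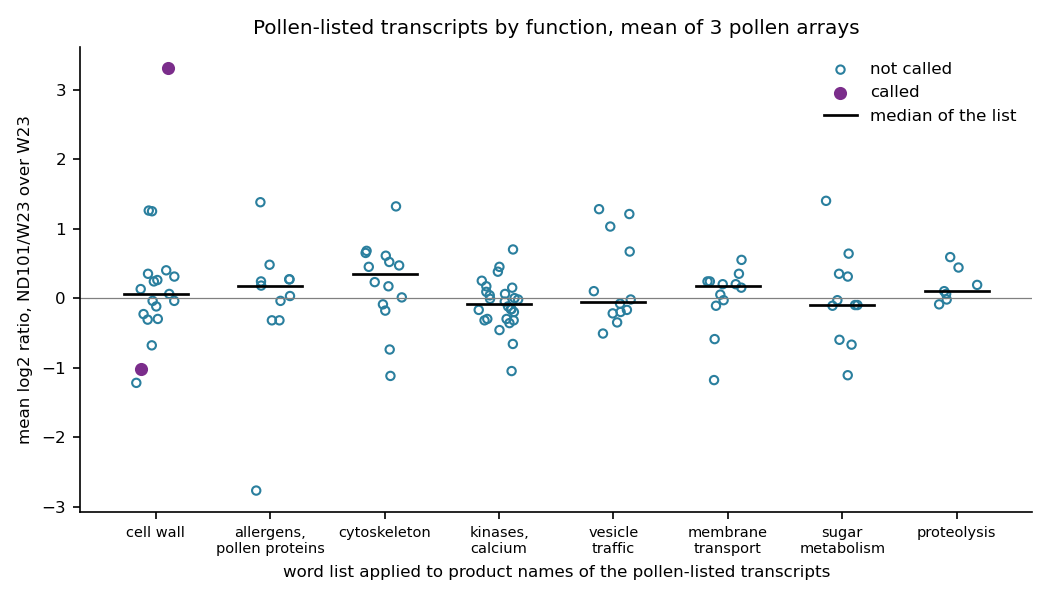
Mean log2 ratio of ND101/W23 over W23 on 3 mature pollen arrays (y axis) for pollen-listed transcripts, grouped by words in their product names (x axis), with a bar at the median of each group. The 2 filled points in the cell wall group, TC259833 at 3.31 and TC272629 at -1.02, are the members of the 8 groups that limma called, and every median lies within 0.34 of 0. Rank Products also called TC266523 (cell wall), TC260229 (allergens), TC258665 (kinases) and TC275189 (transport) lower.

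Markers of the pollen grain itself were uneven between arrays. Of 13 marker probes for profilin, actin-depolymerizing factors, exopolygalacturonase, group 3 pollen allergens and pollen specific mRNAs, none was called in limma or by Rank Products (3 at an unadjusted p under 0.05, beside 863 of all 7900 probes). Their means lay between -1.12 and 1.38, with a median of 0.27, and only 4 of the 13 had 3 ratios of the same sign. The median over these probes was -0.28 on array 1, 0.67 on array 2 and 0.32 on array 3, and their median SD over arrays was 0.727. Exopolygalacturonase, which digests pectin along the path of the tube, gave -0.28, 2.83 and 1.21 at TC259347 and -0.66, 0.76 and -0.22 at TC259353. Array 2 was the highest at both probes, and at both probes for actin-depolymerizing factors as well, with 1.11 at TC250014 and 1.86 at TC250015. In A619 pollen, array 2, which shares that W23 sample, was also the highest of its line at these probes. It had 2.54 at TC259347, -0.04 at TC259353, 1.2 at TC250014 and 2.07 at TC250015. Not all markers went this way. In the hybrid, array 2 was the lowest at TC269704 (-0.13), TC257450 (1.06) and TC258697 (-0.06). It was in between at TC270264 (-0.49) and the highest at the remaining markers. In A619 pollen, array 2 was the lowest at TC269704 (0.69) and TC257450 (-0.34). The part of this unevenness of array 2 in the results was not tested, and without replicate 2 the number of called probes was 50 or 89, as given above.

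Probes listed as unique to other tissues were, by that list, not detected in pollen, so that few calls among them follow from how they were listed, and they tell nothing of other cells in the pollen samples. Among 863 such probes of juvenile leaf, limma called the 3 described above, CD510512, TC251179 and TC271583 (0.348%). Among 218 probes of 1 mm anthers and 126 of 1.5 mm anthers it called none, nor did Rank Products, with 13 and 7 at an unadjusted p under 0.05. TC276985 of the 1.5 mm anther list, similar to the male fertility protein Ms45 of the tapetum, the nurse layer of the anther, had -0.28, -0.24 and 0.58.

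In groups drawn from all named probes, none of 22 stress and defence proteins, 30 tubulins and kinesins, 13 ribosomal proteins or 43 photosynthesis and plastid proteins was called in limma, with 2, 4, 0 and 2 at an unadjusted p under 0.05. Over all 7900 probes, 0.937% were called and 863 were at that unadjusted p. Rank Products called 1 member of these groups, the beta-tubulin TC248696, lower, and the medians of these groups lay between -0.08 and -0.01. The kinesin-like TC272003 had 1.32, 1.27 and 1.66 in ND101/W23 pollen and 1.28, 0.21 and 1.39 in A619 pollen. All of these ratios were above 0, the hybrid mean was 1.42 ± 0.21 (SD, n = 3), and the adjusted p of 0.0516 in limma lay just over the threshold. A word list for mitochondrial electron transport took in 15 probes. They are not all mitochondrial, since the highest, TC248243, is similar to a chloroplast photosystem I subunit. TC259322 was the only one of the 15 called in limma (6.67%, beside 0.937% of all probes) and the only one called by Rank Products. Of the 15 means, 2 lay below -1.

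Of 25 probes in the qRT-PCR panel, 24 had a value, and TC259707 and TC259322 were called in limma (8.33%, beside 0.937% of all probes). The study chose the panel as examples over a wide range of expression, so its share is not that of probes taken at random. Of the panel's 22 other measured probes, 20 had means between -0.79 and 0.61. The lowest uncalled member was the histone TC247876, with -1.72, -1.94 and -4.46 in ND101/W23 pollen and 0.29, -1.15 and 0.06 in A619 pollen. Histones package DNA into nucleosomes. All 3 hybrid arrays were low, but array 3 was far below the others, and the mean of -2.71 ± 1.52 (SD, n = 3) was not called in limma (adjusted p 0.0834). The beta-tubulin TC248696 had -0.99, -0.94 and -2.25 (mean -1.39, limma adjusted p 0.419), again lowest on array 3. Rank Products called both lower. Close to 0 were the photosystem II protein TC270718, with -0.29, -0.17 and 0.0, and the histone acetyltransferase GCN5 (TC273423), with -0.14, 0.03 and -0.1.

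**Figure D5:**
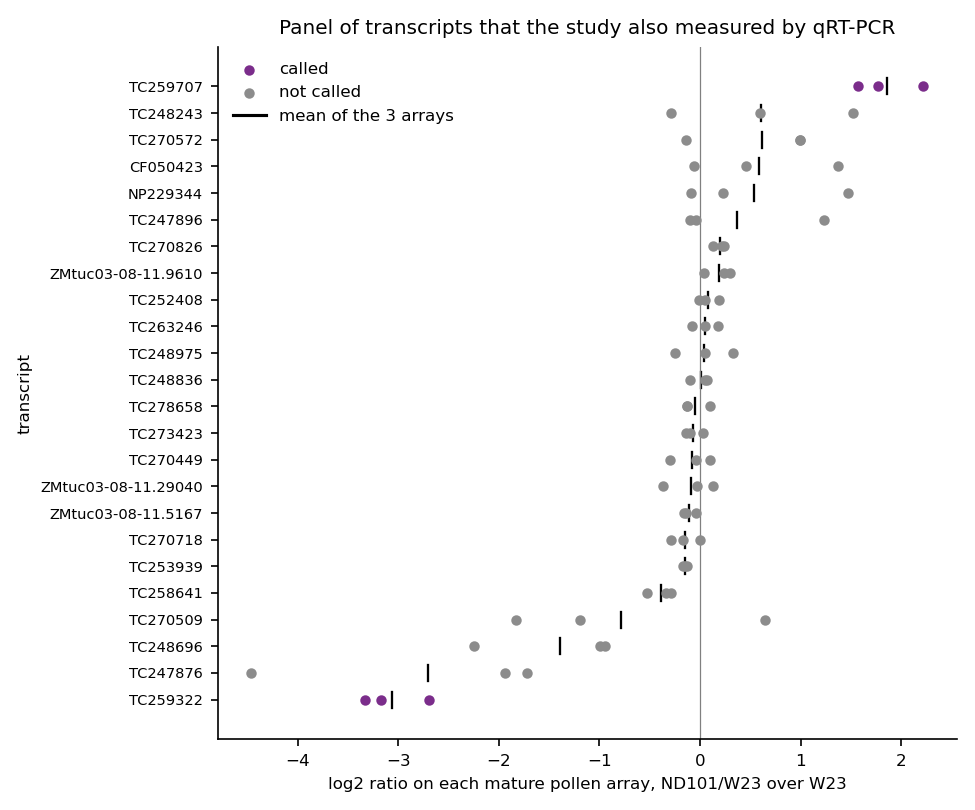
Log2 ratio of ND101/W23 over W23 on each of 3 mature pollen arrays (points) and their mean (bar) for the 24 measured transcripts of the qRT-PCR panel (rows). TC259707 and TC259322 at the top and bottom were called in limma, and 20 of the other 22 means lie between -0.79 and 0.61.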

How the data were processed

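The deposited values are log2 ratios of 2-colour Agilent arrays with 60-mer probes, which the authors took from Agilent Feature Extraction: they left out saturated spots, set thresholds from negative controls, normalized within arrays (rank-invariant probes, then loess) and gave triplicates the same variance. The labels and the study's design drawing give opposite dyes, and the direction was set by the study's panel table (same sign in 36 of 36 ratios of at least 0.5 in size). Probe numbers of the study's tables were joined at an offset of 3, at which 22 of 23 accessions matched. EST names cover 1610 measured probes and product names 1244.

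Ratios were tested against 0 with limma 3.58.1 in R 4.3.3 on the 6 pollen arrays, with a mean for each line, at a Benjamini-Hochberg adjusted p under 0.05 with 3 ratios of 1 sign; probes needed at least 2 values. Hybrid tissues were contrasted on its 12 arrays. Rank Products used 100 permutations. The scripts were tested on simulated data. Arrays with the same number share a W23 aliquot, and their deviations from the line means correlated at 0.223, 0.325 and 0.378 (-0.3 to -0.0268 otherwise). The deviations of the 3 arrays of a line sum to 0 at each probe. The negative values are therefore tied to the positive ones and are no separate evidence of the pairing. The study states that samples came from separate plants or tassels. Named were called probes with a product or gene name, the highest and lowest called probe, the panel, markers and the extremes of each list. The members and lists were chosen with earlier results of these data known. Alternatives were centring, scaling, other fits, a dye coefficient, the block, probe filters and left-out replicates. Signal intensities are not analysed here, and 3 arrays limit the precision. Plots used matplotlib 3.10.9.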

Additional observations from a re-analysis of the deposited data

Results flagged for a closer look

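For these probes the ratio of ND101/W23 over W23 differed between pollen and the mean of the other 3 tissues of the hybrid in limma at an adjusted p under 0.05. The called ones were chosen on the same pollen arrays. Higher in pollen than in the other tissues were probe 3123 by 6.1, TC259833 by 3.24, CD510512 by 1.7, TC259707 by 1.69, TC268098 by 1.66 and the profilin TC257450 by 1.34, the last of which was not called in pollen itself. Below the mean of the other tissues were probe 17106 by -4.13, TC251179 by -3.25 and LOC542743 by -1.83, and, with no limma call in pollen itself, the allergen-like TC260229 by -3.17, the sulfate transporter-like TC275189 by -1.29 and the cytochrome b-like TC253961 by -0.81. The pollen mean of TC253961, -0.73, lay below its anther means of 0.42 and 0.77 but not below its leaf mean of -0.96.

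At 2 members of the panel the difference came from the other tissues. The transcript similar to ribosomal protein L15 had a mean of 0.19 in pollen, beside 2.45 in 1 mm anthers, 2.45 in 1.5 mm anthers and 1.11 in leaf (difference -1.81, limma adjusted p 0.0132). The transcript similar to a late embryogenesis abundant protein had -0.11 in pollen, beside 1.35, 1.5 and 0.41 (difference -1.2, limma adjusted p 0.0182).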

How the results depend on the processing

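The count of 74 called probes became 34 in a fit on the 3 hybrid pollen arrays and 326 in a fit on all 24 arrays, and lay between 0 and 89 when a replicate was left out. Centring (75), scaling (98, 60 of them higher), the replicate block (66), a dye coefficient (75, of which 53 are among the 74), the probe filters (74 and 76), no rule on signs (74) and Rank Products (109) stayed within 1.5 times. For ND101/W23 minus A619, 0 calls became 117 on all 24 arrays, 26 with the replicate block and 7 with a dye coefficient, and 0 to 4 with a replicate left out. For pollen minus the other tissues, 232 calls became 373 after scaling and 437 on all 24 arrays, and lay between 16 and 135 with a replicate left out. None of the 14 named called probes changed sign in 193 pairs of a probe and an alternative, and 68 of these pairs lost the call. All but 8 of the 68 were fits with a replicate left out. In the comparison with W23, the block for the pairing changed the call of 1 named probe, TC257450. Of named probes that were not called, 11 gained a call in at least 1 limma alternative, each on all 24 arrays. Rank Products called 6 that limma did not. With a replicate left out, 10 uncalled probes changed sign: TC247896 (-0.07 to 0.59), TC263246 (-0.01 to 0.12), TC248975 (-0.1 to 0.19), TC276985 (-0.26 to 0.17), TC248836 (-0.03 to 0.06), TC259353 (-0.44 to 0.27), TC270449 (-0.17 to 0.03), the panel's match to nuclear transport factor 2 (-0.2 to 0.05), TC270969 (-0.28 to 0.06) and TC259975 (-0.8 to 0.45). The causes were not tested. The median of the pollen-listed transcripts lay between 0.04 and 0.08. Signal over background is not known from these ratios.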
